A study of Mus musculus with 11 samples.

Results

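The genes described here encode 10 enzymes that defend cells against superoxide and peroxides: Sod1, Sod2, Sod3, Cat, Gpx3, Gpx4, Prdx3, Prdx6, Nqo1 and Gclc. They were taken from a list of antioxidant genes by symbol and not by their measured values, though with earlier results of these data known. All 10 were present among the 15453 genes in the tables. Expression was measured in epididymal white adipose tissue (eWAT), the visceral fat depot beside the epididymis, of 11 male mice labelled C57BL/6, the C57BL/6J background in the methods of the study. The 6 wildtype (WT) mice carried intact Mest, and the 5 paternal knockout (pKO) mice were Mest+/- and had received the inactivated allele from the father. Mest, mesoderm specific transcript, is imprinted and transcribed from the paternal allele, so a pKO mouse keeps an intact allele that is normally silent. The inactivated allele lacks exon 3 in every tissue and is not limited to fat cells. Animals of both genotypes were 16 weeks old and had eaten a high fat diet from week 8 on, so no mouse on a standard diet serves as a control for the diet.

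Superoxide arises when oxygen takes up single electrons, mainly at the mitochondrial respiratory chain and at NADPH oxidases. Superoxide dismutases turn it into hydrogen peroxide, in the cytosol (SOD1), in the mitochondrial matrix (SOD2) or outside the cell (SOD3). Peroxide is then removed by catalase in peroxisomes, by glutathione peroxidases that use glutathione, and by peroxiredoxins that mostly use thioredoxin. GCLC makes the glutathione precursor, and NQO1 reduces quinones that would otherwise generate superoxide. Adipose tissue of obese mice is known for a raised oxidant load.

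The assay was SAGE, serial analysis of gene expression. It reads a transcript as a single short tag that starts at the NlaIII site (CATG) nearest to its poly(A) tail. A tag count therefore does not grow with transcript length. Setting levels side by side between genes still requires that each transcript gives a full tag that belongs to 1 gene. The predicted tags are shown because they are the only stretch of each transcript that the assay reads. They were taken from GENCODE transcripts of GRCm38, the assembly of the mm10 build named in the submitters' processing notes, with 25 bases from the 3'-most site of the longest protein-coding transcript that has a RefSeq match. The tables give 1 value a gene and not the tags, so whether these were the tags counted is not known. Capitals mark the NlaIII site.
Sod1: CATGagaaacaagatgacttgggca
Sod2: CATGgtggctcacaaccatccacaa
Sod3: CATGcaactagaggggattcaacaa
Cat: CATGgtgtctgtctttggatggcct
Gpx3: CATGctatcctctcactctgtccac
Gpx4: CATGaaggtctgcctgaaaaccagc
Prdx3: CATGaaggactatgtctaatccata
Prdx6: CATGccctatgccatcagctttgat
Nqo1: CATGgcgcccagggggttggctctc
Gclc: CATGaaatgcactaatttttgtgaa
The Sod1 tag lay in the coding sequence, and the other 9 lay in the 3' untranslated region of the last exon. The Sod2 tag also occurs in a transcript of the non-coding gene Gm26909, and the Gpx4 tag in the pseudogene Gpx4-ps2, so reads of these 2 genes could be split or merged with those of their copies. The other 8 tags occur in no other gene's annotated transcripts. Among the 12114 genes of the tables with such a tag, 3.86% shared it with another gene.

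Each library held between 9659740 and 14825727 tags in WT and between 11320342 and 14626803 in pKO mice. Mest was measured at 20756 to 27897 normalized tags in the 6 WT libraries and at 793 to 2275 in the 5 pKO ones, with a log2 fold change (pKO minus WT) of -3.99 (SE 0.22, limma adjusted p = 1.18e-06). SAGE tags come from the 3' end and lie outside the deleted exon, so this value gives the amount of transcript and does not test the deletion itself. All 7 adipocyte markers were detected in every library, with Fabp4, the fatty acid binding protein of fat cells, at 471444 to 938405 normalized tags. Values below are normalized tags (the counts over each library's size factor), given as mean ± SD over the number of mice n, and folds compare pKO with WT.

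The 10 genes spanned more than 3 orders of magnitude in normalized tags. In WT mice, mean levels were 13830 ± 2149 (n = 6) for Sod3, 12038 ± 877 for Sod1, 6960 ± 1408 for Gpx4, 4874 ± 893 for Gpx3 and 2434 ± 558 for Cat. Lower levels were found for Prdx3 (818 ± 157), Sod2 (620 ± 48.1), Gclc (312 ± 28.0), Nqo1 (14.2 ± 5.26) and Prdx6 (4.90 ± 2.10). Neighbours in this order overlapped in range for Sod3 and Sod1, for Gpx4 and Gpx3, and for Prdx3 and Sod2, while the WT ranges of the other neighbours did not overlap. Sod3 exceeded Sod1 in 5 of the 6 WT mice, Gpx4 exceeded Gpx3 in 6 of 6, and Prdx3 exceeded Sod2 in 5 of 6. The secreted and the cytosolic dismutase together held 61.7% of the summed tags of the 10 genes in WT and 59.3% in pKO mice.

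**Figure D1:**
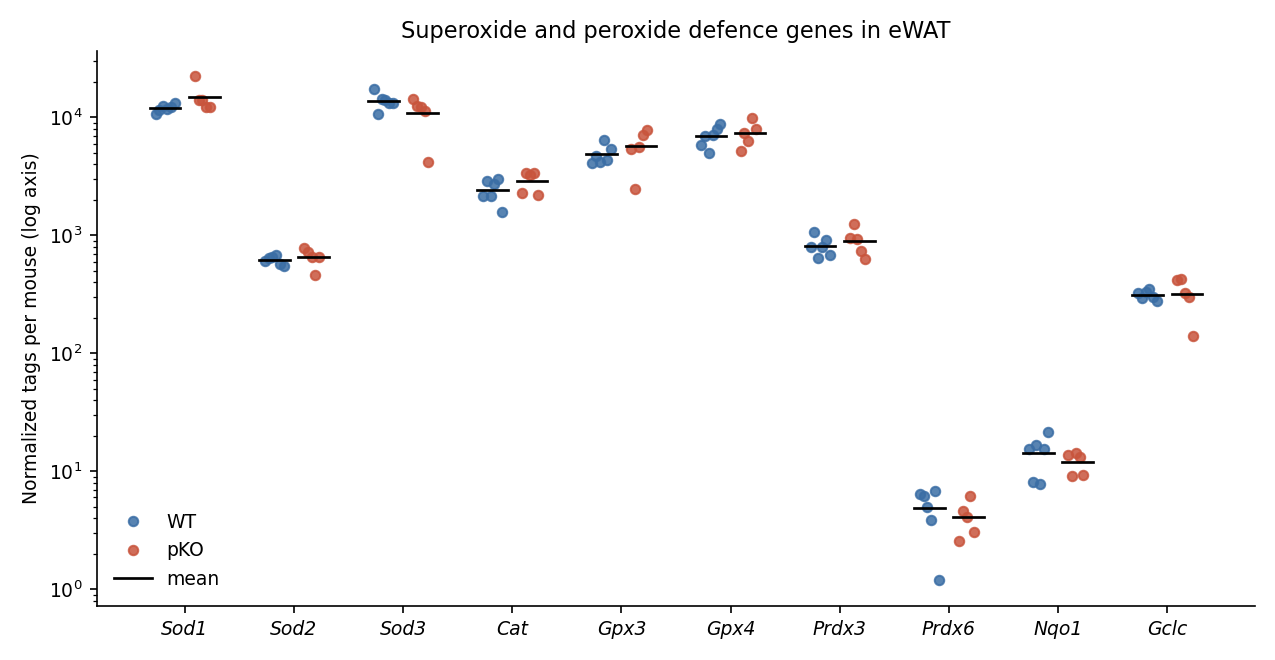
Levels of each of the 10 genes in normalized tags on a log axis, with a point for each of the 6 WT and 5 pKO mice and a black line at the mean of each genotype. Levels run from 4.90 in WT mice for Prdx6 to 13830 for Sod3, and the WT and pKO points of every gene overlap.

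No gene of the 10 passed the test between genotypes. A mean of 50 normalized tags or more in either genotype was required, and of the 8 genes that reached it, 0 passed limma at an unadjusted p of at most 0.05 and 0 passed an adjusted p of at most 0.1. edgeR and DESeq2 on the recovered tags also called 0 at both thresholds. Among all 9906 genes above this mean, 10.6% passed the unadjusted threshold (4.85% higher and 5.77% lower in pKO mice) and 0.0505% the adjusted one, so a count of 0 among 8 genes was near the background. These shares stand for 480 higher and 572 lower genes, and scaling by total tags in place of the deposited size factors gave 330 higher and 737 lower, again with 0 of the 8. The log2 fold changes of the 8 had a median of 0.09 beside 0.01 for all 9906 genes. Together, the 10 genes took 0.345% ± 0.0291 of all tags in WT (n = 6) against 0.351% ± 0.0427 in pKO (n = 5; exact permutation test, two-sided, p = 0.79).

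**Figure D2:**
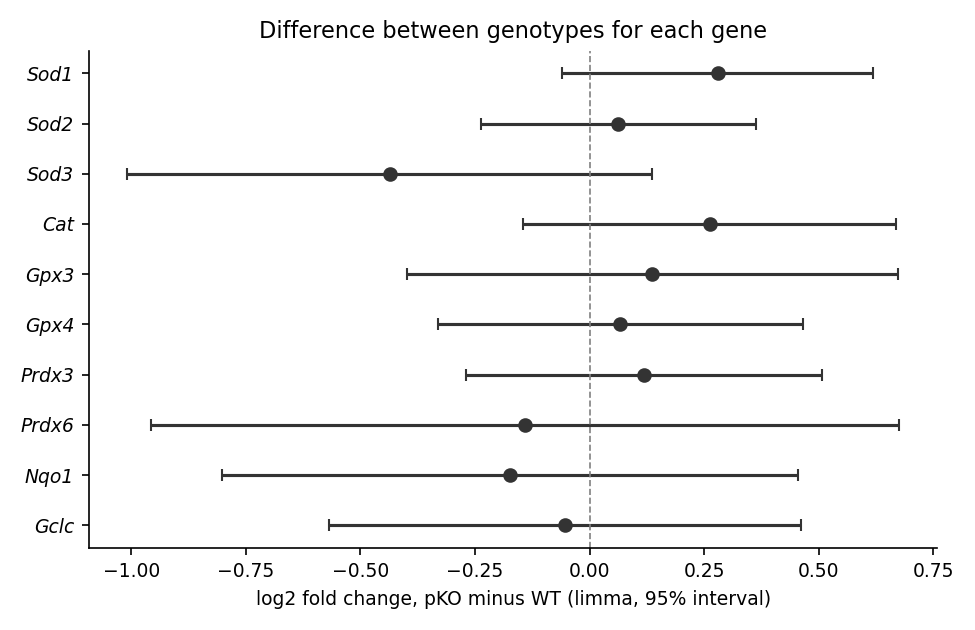
Log2 fold change (pKO minus WT) of each gene from limma with its 95% interval, the dashed line marking no difference. All 10 intervals include 0, and they are widest for Prdx6 (-0.96 to 0.67) and Nqo1 (-0.80 to 0.45).

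Sod1, at chr16:90220754-90226329 (plus strand), encodes the copper and zinc dismutase of the cytosol. WT mice lay between 10661 and 13242 with a median of 12089. The pKO mice had 22479, 13946, 14033, 12262 and 12201 normalized tags for replicates 1 to 5. All 5 pKO values exceeded the WT median and 3 exceeded the highest WT value, yet the ranges overlapped. The log2 fold change was 0.28 (SE 0.16, 95% interval -0.06 to 0.62, limma unadjusted p = 0.0997, adjusted p = 0.59, exact permutation p = 0.052). A large part of it came from replicate 1. Without this mouse the pKO mean fell from 14984 ± 4281 (n = 5) to 13110 ± 1016 (n = 4), and the log2 fold change was 0.12 (SE 0.11, limma adjusted p = 0.69, exact permutation p = 0.11). The same library had the highest summed mesothelial markers of the 11, at 2683 beside 1158 to 2202 in the others, and the part of those cells in the Sod1 value was not tested.

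Sod2, at chr17:13006846-13040063 (plus strand), encodes the manganese dismutase of mitochondria. Its WT values ran from 555 to 679 with a median of 627. In pKO replicates 1 to 5 it was at 785, 729, 650, 463 and 656. Both the highest and the lowest of the 11 values were in pKO mice, and the means of 620 ± 48.1 (n = 6) and 657 ± 121 (n = 5) differed by a log2 fold change of 0.06 (SE 0.14, 95% interval -0.24 to 0.36, limma adjusted p = 0.92). Its interval leaves room for a change of up to 1.29-fold upward or to 0.848-fold downward.

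Sod3, at chr5:52363791-52371418 (plus strand), encodes the secreted dismutase that binds to the extracellular matrix. Values in WT mice were 10640 to 17317, with a median of 13699. The pKO values were 14359, 12445, 12332, 11405 and 4226 for replicates 1 to 5. Only replicate 1 exceeded the WT median, and only replicate 5 fell below the WT minimum. The means were 13830 ± 2149 (n = 6) and 10953 ± 3911 (n = 5), a log2 fold change of -0.44 (SE 0.27, 95% interval -1.01 to 0.14, limma unadjusted p = 0.125, adjusted p = 0.62, exact permutation p = 0.18). This was the largest difference in size among the 10 genes. Leaving out replicate 5 brought the pKO mean to 12635 ± 1240 (n = 4) and the log2 fold change to -0.12 (SE 0.14, limma adjusted p = 0.85). Replicate 5 also had the lowest Gclc value, the lowest sum of the 10 genes (35755 beside 38948 to 51826 in the other mice) and the highest sums of erythroid markers (1649) and lymphocyte markers (294). Their part in these low values was not tested. In whole tissue, fewer cells that express a gene and less RNA per cell cannot be told apart.

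Cat, at chr2:103453849-103485160 (minus strand), encodes catalase, which splits hydrogen peroxide in peroxisomes. The WT range was 1590 to 3034 around a median of 2460. The pKO mice had 2284, 3370, 3252, 3412 and 2203. They formed a low pair inside the WT range and 3 mice above its top. The means of 2434 ± 558 (n = 6) and 2904 ± 607 (n = 5) gave a log2 fold change of 0.26 (SE 0.19, 95% interval -0.14 to 0.67, limma adjusted p = 0.68, exact permutation p = 0.24). Cat was the only one of the 8 better measured genes whose coefficient of variation (CV, the SD as a percent of the mean) was not higher in pKO mice, at 22.9% in WT and 20.9% in pKO.

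Gpx3, at chr11:54902453-54910377 (plus strand), encodes the glutathione peroxidase secreted into plasma. It was measured at 4125 to 6418 in WT mice, with a median of 4557. The values in pKO replicates 1 to 5 were 5354, 2488, 5596, 7157 and 7768. Replicate 2 lay below every WT mouse, and replicates 4 and 5 lay above them. With means of 4874 ± 893 (n = 6) and 5673 ± 2052 (n = 5), the log2 fold change was 0.14 (SE 0.25, 95% interval -0.40 to 0.67, limma adjusted p = 0.90, exact permutation p = 0.68). Without replicate 2 the pKO mean was 6469 ± 1178 (n = 4) and the log2 fold change 0.41 (SE 0.16, 95% interval 0.05 to 0.76), which passed the unadjusted threshold (limma p = 0.027) and not the adjusted one (adjusted p = 0.32, exact permutation p = 0.057). Without replicate 5 the log2 fold change was -0.00139, so the direction of Gpx3 rested on single mice.

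Gpx4, at chr10:80047166-80056439 (plus strand), encodes the peroxidase that reduces lipid hydroperoxides within membranes and holds back ferroptosis. The 6 WT mice ranged from 4951 to 8821 with a median of 7063. The 5 pKO mice had 5189, 7343, 6286, 9951 and 7912. These sets lay almost on top of each other, with 1 pKO value above the WT range and none below it. Means of 6960 ± 1408 (n = 6) and 7336 ± 1794 (n = 5) gave a log2 fold change of 0.07 (SE 0.19, 95% interval -0.33 to 0.47, limma adjusted p = 0.94). The direction turned without WT replicate 3 (-0.03) and without pKO replicate 4 (-0.05).

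Prdx3, at chr19:60864051-60874556 (minus strand), encodes the peroxiredoxin of mitochondria. In WT mice it lay between 647 and 1069 with a median of 796. The pKO values were 943, 1239, 928, 742 and 636. Replicate 2 was above the WT range and replicate 5 below it. The means of 818 ± 157 (n = 6) and 898 ± 230 (n = 5) differed by a log2 fold change of 0.12 (SE 0.18, 95% interval -0.27 to 0.51, limma adjusted p = 0.87), and without replicate 2 by -0.01.

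Prdx6, at chr1:161240112-161251219 (minus strand), encodes a cytosolic peroxiredoxin that uses glutathione and also has phospholipase activity. Only 52 tags were counted for it in all 11 libraries, between 1 and 7 in each. Its mean of 4.90 ± 2.10 in WT (n = 6) against 4.10 ± 1.41 in pKO (n = 5) placed it higher than 11% of all genes. The WT counts varied no more than counting noise, with a variance of 0.715 times their Poisson value. The log2 fold change of -0.14 had a 95% interval from -0.96 to 0.67 (SE 0.38, limma adjusted p = 0.94), so a difference of the size seen for any other gene in the set was not detectable at this depth. The predicted tag begins 63 bases before the end of the longer of 2 coding transcripts. The shorter one, of 959 bases, has its last NlaIII site 19 bases before its end, which leaves less than 25 bases for a tag. Sod2 and Cat also have a coding transcript of this kind, with the last site 13 and 8 bases before its end. Whether the site bears on the low count of Prdx6 was not tested, since the values do not tell the transcripts of a gene apart.

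Nqo1, at chr8:107388225-107403206 (minus strand), encodes the quinone reductase that is a standard target of the transcription factor NRF2. It was counted 149 times in total, with 8 to 20 tags in each library. The WT mice had 7.77 to 21.4 normalized tags with a median of 15.5. The pKO mice had 13.7, 9.17, 14.2, 13.2 and 9.21, all below the WT median and all within the WT range. Their means of 14.2 ± 5.26 (n = 6) and 11.9 ± 2.52 (n = 5) gave a log2 fold change of -0.17 (SE 0.29, 95% interval -0.80 to 0.45, limma adjusted p = 0.89). On the log2(value + 1) scale used here, changes of Nqo1 and Prdx6 are understated.

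Gclc, at chr9:77754535-77794485 (plus strand), encodes the catalytic subunit of the enzyme that limits the rate of glutathione synthesis. The WT mice were close together, at 275 to 353 with a median of 311. The pKO mice had 417, 426, 323, 301 and 140. Replicates 1 and 2 were above the WT range, and replicate 5 was far below it. The mean was slightly higher in pKO (321 ± 116, SD, n = 5) than in WT mice (312 ± 28.0, SD, n = 6), while the log2 fold change was slightly negative at -0.05 (SE 0.24, 95% interval -0.57 to 0.46, limma adjusted p = 0.96). Without replicate 5 it was 0.22 (SE 0.14, limma adjusted p = 0.67, exact permutation p = 0.12).

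The pKO mice were spread more widely than the WT mice for 7 of the 8 genes with at least 50 normalized tags. The CV was 28.6% in pKO beside 7.28% in WT mice for Sod1, 36.0% beside 8.98% for Gclc, 35.7% beside 15.5% for Sod3, and 18.5% beside 7.75% for Sod2. For 4 of the 8 genes the pKO value was at least 2 times the WT value, which held for 29.7% of all 9906 genes. Across those genes the median CV was 15.5% in WT and 23.2% in pKO mice, and 73.5% of them had the higher CV in pKO, so a wider pKO spread was not particular to these enzymes. The mice that stood apart differed from gene to gene. Replicate 1 was high in Sod1, replicate 2 low in Gpx3 and high in Prdx3, replicate 4 low in Sod2 and high in Gpx4, and replicate 5 low in Sod3 and Gclc.

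**Figure D3:**
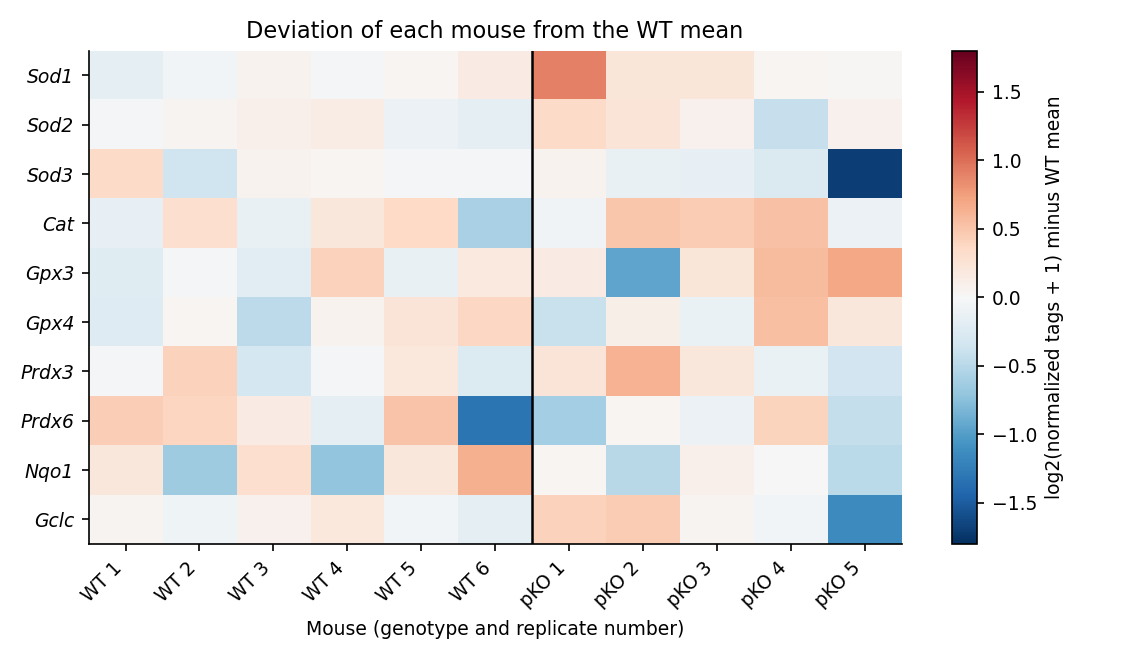
Difference of each mouse from the WT mean on the log2(normalized tags + 1) scale, with genes as rows and mice as columns, red above and blue below the WT mean. The strongest colours are isolated cells in single mice, such as Sod1 in pKO 1 and Sod3 and Gclc in pKO 5, and Prdx6 in WT 6, where 1 tag was counted.

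The other genes of peroxide metabolism were counted in lists grouped by role and fixed by name, with earlier results of these data known. Of 10 other peroxidases listed, 8 were analysed here (Gpx2 and Gpx6 were not), and all 8 reached a mean of 50 in WT or pKO mice. At the unadjusted threshold 3 were higher in pKO mice, 0 were lower and 5 passed in neither direction, beside a background of 4.85% for higher genes, while total-count scaling left 0 higher and 0 lower. Their median log2 fold change was 0.14, and 0 passed the adjusted threshold. The 3 were Gpx5, a peroxidase secreted by the epididymis, Prdx4, the peroxiredoxin of the endoplasmic reticulum, and Gpx1, the main cytosolic glutathione peroxidase. Gpx5, which reached a mean of 50 only in pKO mice, was at 35.8 ± 7.43 in WT (n = 6) against 62.0 ± 27.8 in pKO (n = 5), and its log2 fold change was 0.68 (SE 0.29, limma unadjusted p = 0.034, adjusted p = 0.49). Prdx4 was at 67.9 ± 12.5 and 89.5 ± 14.9, a log2 fold change of 0.40 (SE 0.18, limma unadjusted p = 0.046, adjusted p = 0.52). Each call was lost in several of the 11 fits that left out 1 mouse. Gpx5 lost it without WT replicates 2, 4 or 5 or pKO replicates 1 or 5, with log2 fold changes of 0.49 to 0.65, and Prdx4 in 8 of the 11 fits (without WT replicates 2, 4, 5 or 6 or pKO replicates 1, 2, 4 or 5), with 0.29 to 0.42. Prdx1, the most abundant of these peroxidases in WT mice, had 13962 ± 1064 and 14636 ± 1942 (limma adjusted p = 0.91).

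Gpx1 values fell apart within the WT mice. WT replicates 1 to 6 had 17682, 3140, 18968, 17414, 4230 and 5511 normalized tags, a set of 3 high and 3 low mice. The pKO replicates 1 to 5 had 22829, 10462, 20683, 16414 and 21443. All pKO values lay above the 3 low WT mice, and 3 of the 5 lay above the highest WT mouse. The Gpx1 log2 fold change was 1.03 (SE 0.47, limma unadjusted p = 0.046, adjusted p = 0.52, exact permutation p = 0.11), with a WT CV of 67.9%. In edgeR the Gpx1 log2 fold change was 0.71 (unadjusted p = 0.129), and the call was also lost in 7 of the 11 fits that left out 1 mouse (WT replicates 2, 5 or 6, or pKO replicates 1, 3, 4 or 5), at 0.73 to 1.06. The step inside the WT group, from 5511 to 17414, was wider than the difference between the genotype means of 11157 and 18366.

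The thioredoxin and glutaredoxin list, which recharges the peroxiredoxins, had 13 of 14 genes at a mean of 50 or more, and 0 passed in either direction (median log2 fold change -0.06). Txn1, cytosolic thioredoxin, was at 6386 ± 261 in WT (n = 6) against 7621 ± 1380 in pKO (n = 5; log2 fold change 0.24, SE 0.13, limma adjusted p = 0.58). Txnrd1, its reductase, was at 1162 ± 260 and 920 ± 291 (limma adjusted p = 0.64), and Txnip, the inhibitor of thioredoxin, at 1290 ± 218 and 1711 ± 709 (limma adjusted p = 0.72). Glrx3, a cytosolic glutaredoxin, had 1723 ± 137 and 1492 ± 689 (limma adjusted p = 0.69). All 4 pairs of ranges overlapped.

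Of 9 genes for glutathione supply, 4 had a mean of at least 50 and 0 passed in either direction (median log2 fold change -0.01). Gclm, the partner subunit of GCLC, was at 726 ± 144 in WT (n = 6) against 757 ± 136 in pKO (n = 5; limma adjusted p = 0.93). Gsr, which regenerates reduced glutathione, was at 261 ± 23.8 and 248 ± 49.0 (limma adjusted p = 0.88), and Gss, which completes glutathione synthesis, at 56.2 ± 11.4 and 48.4 ± 5.56 (limma adjusted p = 0.76). Oplah, an enzyme of glutathione turnover, had 117 ± 35.0 and 144 ± 27.5 (limma adjusted p = 0.64).

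In the NADPH supply list, whose enzymes provide the reducing power for both systems, a mean of 50 was reached by 10 of 11 genes, and 0 passed (median log2 fold change 0.02). Several other settings moved this count, among them total-count scaling and a replicate block (1 lower in each). It was 1 higher and 1 lower without pKO replicate 1, and stayed at 0 in edgeR and DESeq2. Me1, malic enzyme, was the highest at 36273 ± 5741 in WT (n = 6) against 41034 ± 11783 in pKO (n = 5; limma adjusted p = 0.87). Idh1, cytosolic isocitrate dehydrogenase, had 7426 ± 633 and 6510 ± 2884 (limma adjusted p = 0.73), and Taldo1, transaldolase of the pentose phosphate pathway, 6071 ± 390 and 7314 ± 1605 (limma adjusted p = 0.63). Aldh1l1, a folate enzyme that yields NADPH, had 2538 ± 281 and 2774 ± 770 (limma adjusted p = 0.91).

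The metal and selenium list, which serves the metal-dependent dismutases and the selenium-dependent peroxidases, had 13 of 14 genes analysed here (Mt1 was not), 10 of them with a mean of at least 50, and 0 passed (median log2 fold change -0.11). Other settings moved this count, to 2 lower under total-count scaling and with a replicate block, and to 1 higher and 2 lower in DESeq2. Its most abundant genes were Atox1, a copper chaperone (21596 ± 2567 in WT, n = 6, and 18910 ± 5365 in pKO mice, n = 5, SD, limma adjusted p = 0.72), and the selenoprotein genes Sepw1 and Sepp1. Sepw1 had 18034 ± 1085 and 17521 ± 3022 (limma adjusted p = 0.93), and Sepp1, which carries selenium in plasma, 17425 ± 3576 and 17790 ± 4046 (limma adjusted p = 0.98). Mt2, a metallothionein, was at 13090 ± 2008 and 10646 ± 1617 (log2 fold change -0.30, SE 0.14, limma unadjusted p = 0.058, adjusted p = 0.53).

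In the NRF2 axis, the regulators and targets of the antioxidant transcription factor NRF2, all 14 genes analysed here had a mean of at least 50 (Ftl1 was not analysed). At the unadjusted threshold 1 was higher and 1 lower in pKO mice, and 12 passed in neither direction (median log2 fold change -0.14), near the background shares of 4.85% and 5.77%. Under total-count scaling 0 were higher and 2 lower. Fth1, the ferritin heavy chain that stores iron, was the higher one at 24132 ± 5224 in WT (n = 6) against 32056 ± 5349 in pKO (n = 5; log2 fold change 0.42, SE 0.18, limma unadjusted p = 0.033, adjusted p = 0.49). That call was lost in 6 of the 11 fits without 1 mouse (WT replicates 1, 3 or 5, or pKO replicates 3, 4 or 5), with log2 fold changes of 0.35 to 0.42. Maff, a small MAF partner of NRF2, was the lower one at 293 ± 56.4 and 206 ± 24.96 (log2 fold change -0.49, SE 0.16, limma unadjusted p = 0.0073, adjusted p = 0.37), and this call was kept in all 11 fits. Ephx1, an epoxide hydrolase, had 12676 ± 2738 and 9675 ± 3896 (limma adjusted p = 0.62), and Nfe2l1, a relative of NRF2, 7701 ± 2081 and 8400 ± 697 (limma adjusted p = 0.80).

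In the list of oxidant sources, a mean of 50 was reached by 10 of 12 genes, of which 0 were higher and 3 were lower in pKO mice at the unadjusted threshold, beside a background of 5.77% for lower genes, and 7 passed in neither direction (median log2 fold change -0.14). The count of lower genes was 2 in edgeR, in DESeq2 and with a replicate block. No gene of the list passed the adjusted threshold. P4hb, a protein disulfide isomerase that passes electrons to the peroxide-forming oxidase of the endoplasmic reticulum, was at 3615 to 4633 in WT and 2316 to 3605 in pKO mice, without overlap (log2 fold change -0.44, SE 0.13, limma unadjusted p = 0.0053, adjusted p = 0.37, exact permutation p = 0.0043, the smallest that 6 against 5 mice can give). The other 2 encode parts of the phagocyte NADPH oxidase, which makes superoxide. Cybb, its catalytic subunit, was at 635 ± 109 (n = 6) and 477 ± 59.6 (n = 5; log2 fold change -0.40, SE 0.15, limma adjusted p = 0.44, exact permutation p = 0.030). Ncf4, a regulatory subunit, had 106 ± 26.0 and 58.8 ± 45.5 (log2 fold change -1.20, SE 0.45, limma adjusted p = 0.44, exact permutation p = 0.061). Maoa, a monoamine oxidase of the outer mitochondrial membrane that releases peroxide, was at 967 ± 104 and 906 ± 100.3 (limma adjusted p = 0.84). P4hb kept its call in all 11 fits without 1 mouse. Cybb lost it without pKO replicate 3 (-0.35), and Ncf4 without pKO replicates 1 or 5 (-0.92 and -0.83).

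**Figure D4:**
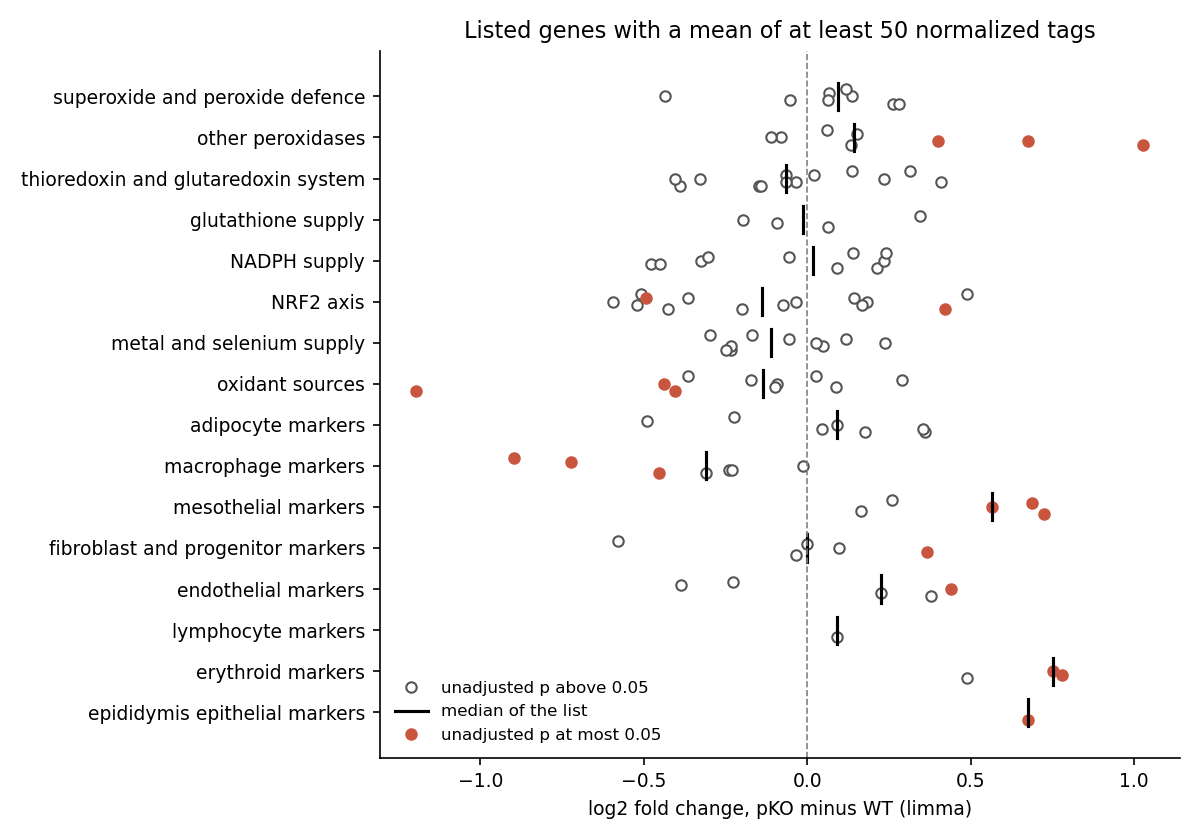
Log2 fold change (pKO minus WT, limma) of every listed gene with a mean of at least 50 normalized tags, 1 row per list, with filled points for an unadjusted p of at most 0.05 and a black line at the list's median. The top row, the defence enzymes, holds no filled point, the oxidant sources hold 3 to the left of 0, and the other peroxidases hold 3 to the right.

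Macrophages express the phagocyte oxidase, and some of their markers were lower in pKO mice as well. Of 8 macrophage markers, 7 had a mean of at least 50, 3 were lower in pKO mice at the unadjusted threshold and 0 were higher (median log2 fold change -0.31), beside a background of 5.77% for lower genes. Emr1, the F4/80 antigen that defines mouse macrophages, had a mean of 856 in WT against 865 in pKO animals (log2 fold change -0.01), and is named here after its values were seen. The marker sum was 3542 to 5117 in WT and 3102 to 4213 in pKO mice, and no marker was at 0 in any library. Itgam was at 338 ± 66.1 (n = 6) and 211 ± 67.6 (n = 5), a log2 fold change of -0.72 (SE 0.22, limma adjusted p = 0.37). Itgax was at 644 ± 260 and 340 ± 132 (limma adjusted p = 0.44), Cd14 at 91.4 ± 16.3 and 67.1 ± 16.8 (limma adjusted p = 0.47), and Mrc1 did not pass (limma adjusted p = 0.55). Without 1 mouse Itgam kept its call in 11 of 11 fits, Itgax lost it without pKO replicates 1 or 2 (-0.72 and -0.74), and Cd14 lost it without WT replicates 1 or 3 or pKO replicates 3, 4 or 5 (-0.43 to -0.37). The part of macrophage number in the oxidase genes was not tested.

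Mesothelial markers, from the sheet of cells that covers the depot, were higher in pKO mice for 3 of the 5 with a mean of at least 50 (median log2 fold change 0.57), beside a background of 4.85%, and for 2 under total-count scaling. Their sum was 1158 to 1589 in WT and 1387 to 2683 in pKO mice, and none was at 0. Krt19, a keratin, was at 374 ± 81.3 (n = 6) and 610 ± 77.6 (n = 5; log2 fold change 0.73, SE 0.16, limma adjusted p = 0.25), and Upk1b at 499 ± 73.7 and 816 ± 193 (log2 fold change 0.69, SE 0.16, limma adjusted p = 0.27), both calls being kept in all 11 fits without 1 mouse. Msln, mesothelin, was at 115 ± 19.5 and 184 ± 86.3 (limma unadjusted p = 0.045, adjusted p = 0.52) and lost its call in 9 of the 11 fits (all but those without WT replicate 3 or pKO replicate 5), with log2 fold changes of 0.33 to 0.60. Lrrn4 did not pass (limma adjusted p = 0.92).

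Of the 7 adipocyte markers, the main cell type of the depot, 0 passed in either direction (median log2 fold change 0.09), and their sum was 669180 to 1084330 in WT and 714428 to 1103230 in pKO mice. Other settings moved this count, to 1 lower in DESeq2 and under total-count scaling, and to 1 higher and 1 lower without WT replicate 4. It stayed at 0 in edgeR. Fabp4, Adipoq, Cidec and Lep, which were the most abundant, had limma adjusted p-values of 0.93, 0.78, 0.96 and 0.55. Their log2 fold changes were 0.09, 0.18, 0.04 and -0.49, with a limma unadjusted p of 0.069 for Lep. Among 5 fibroblast and progenitor markers, 1 was higher and 0 were lower, beside backgrounds of 4.85% and 5.77% (summed range 29168 to 38504 in WT and 37450 to 45812 in pKO mice). It was Dcn, decorin, at 21572 ± 2491 (n = 6) and 27841 ± 3653 (n = 5; log2 fold change 0.37, SE 0.13, limma adjusted p = 0.43). Dpt, Col1a1 and Pdgfra had adjusted p-values of 0.92, 0.96 and 0.999 in limma. Among 5 endothelial markers, 1 was higher and 0 were lower, beside the same backgrounds, with sums of 3902 to 5626 and 4131 to 5387. It was Kdr, the main receptor for VEGF, at 290 ± 59.4 and 392 ± 67.9 (log2 fold change 0.44, SE 0.16, limma adjusted p = 0.44), which lost its call without pKO replicate 5 (0.35). Cdh5, Pecam1 and Tek did not pass, with adjusted p-values of 0.58, 0.53 and 0.71.

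Markers of blood and of the neighbouring epididymis differed in level. By mean, Hba-a1 and Hba-a2 were above 74.2% and 70.8% of all genes, Cd79a above 50.5% and Gpx5 above 36.2%. Of 3 erythroid markers analysed here (Hbb-b1 and Hbb-b2 were not), 2 were higher in pKO mice, beside a background of 4.85%, and 1 under total-count scaling, with sums of 375 to 961 in WT and 648 to 1649 in pKO mice. They were the near-identical alpha globin genes Hba-a1 (318 ± 137, SD, n = 6, and 525 ± 201, SD, n = 5, limma adjusted p = 0.50) and Hba-a2 (260 ± 103 and 439 ± 180, limma adjusted p = 0.52), whose reads cannot be told apart with certainty. Leaving out 1 mouse lost the call of Hba-a1 in 4 fits (WT replicates 1 or 3, pKO replicates 4 or 5, at 0.56 to 0.65) and that of Hba-a2 in 6 (WT replicates 1, 3 or 4, pKO replicates 2, 4 or 5, at 0.57 to 0.76). Alas2, a heme synthesis enzyme of red cells, did not pass (limma adjusted p = 0.63). Of 6 lymphocyte markers 1 had a mean of at least 50, Cd79a of B cells at 109 ± 29.0 and 128 ± 73.0 (limma adjusted p = 0.95), the summed markers being 135 to 191 in WT and 112 to 294 in pKO mice with Cd3g and Ms4a1 at 0 in some libraries. Of 6 epididymal genes 3 were analysed here (Lcn5, Lcn8 and Crisp1 were not), with sums of 34.8 to 68.5 and 29.8 to 130 in all, and Adam7 and Rnase10 were at 0 in some libraries. The third was Gpx5, described above, whose 2 highest values were in pKO replicates 5 (95.2) and 1 (85.8). The epididymal sums of these 2 libraries, 97.2 and 130, include Gpx5 itself and so are no separate measure.

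Whether the 10 enzymes moved together from mouse to mouse was examined on deviations from each genotype's mean. Of the 45 pairs, 22 had a positive Pearson r and 0 passed an adjusted p of at most 0.05 (exact permutation within genotypes, two-sided, Benjamini-Hochberg over the 45 pairs). The highest r was between Sod3 and Gclc, at 0.93 (Spearman rho 0.80, n = 11, permutation p = 0.011 for both, adjusted p = 0.22 for r and 0.25 for rho). It was 0.57 without the 2 mice farthest from the Sod3 median and 0.47 within the WT mice alone, and pKO replicate 5, low in both genes, was one of the 2 left out. Cat and Prdx6 had an r of 0.79 (rho 0.78, permutation p = 0.0083, adjusted p = 0.22, and 0.25 for rho) and 0.54 without the 2 farthest mice, at 1 to 7 tags of Prdx6 in a library. The lowest r was -0.74, between Sod2 and Gpx4 (rho -0.66, permutation p = 0.015, adjusted p = 0.22, and 0.37 for rho), and -0.47 without the 2 farthest mice. Gpx3 and Prdx3 had -0.68 (rho -0.58, permutation p = 0.043, adjusted p = 0.41, and 0.37 for rho), which was -0.24 without the 2 farthest. The mitochondrial pair Sod2 and Prdx3, which act in sequence in the same compartment, had 0.39.

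**Figure D5:**
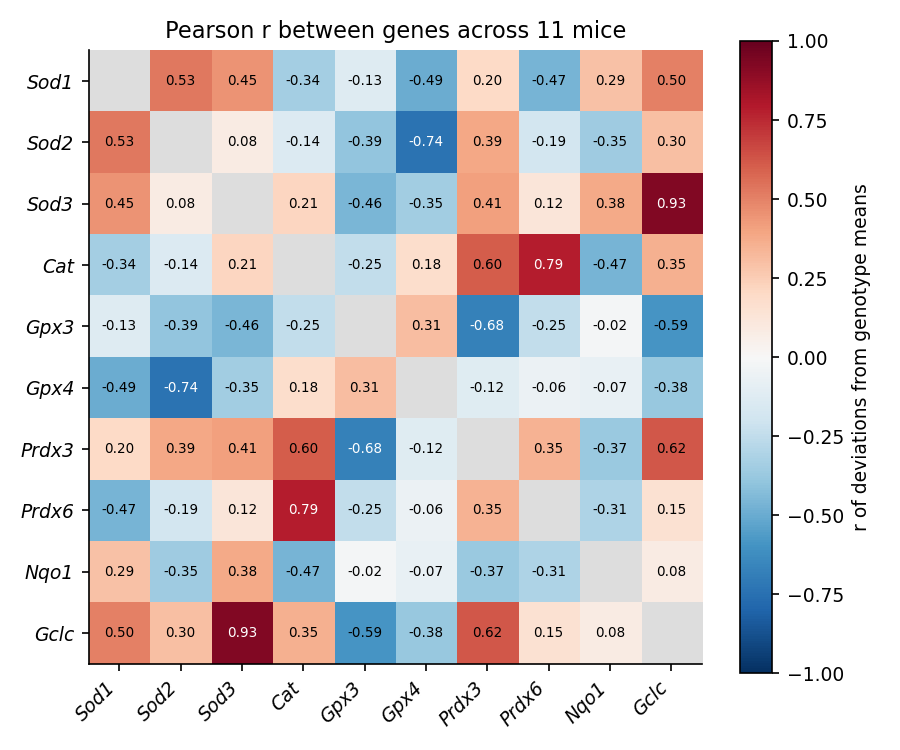
Pearson r between each pair of the 10 genes over 11 mice, computed on log2(normalized tags + 1) after subtracting each genotype's mean, with red for positive and blue for negative r. Sod3 with Gclc (0.93) and Cat with Prdx6 (0.79) are the deepest red cells and Sod2 with Gpx4 (-0.74) the deepest blue, and no pair passed the adjusted threshold.

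The gene whose pattern across the 11 mice was most like each enzyme's was sought among 9898 other genes with a mean of at least 50 normalized tags, again by Pearson r of deviations from the genotype means. Each r is the highest of 9898 over 11 points and is given as a description. Sod1 was nearest to Myo1d, an unconventional myosin (0.97), and Sod2 to Rab1, a GTPase of vesicle transport (0.98). Sod3 was nearest to Ndufa8, a subunit of respiratory complex I (0.97), and Gclc to Selk, a selenoprotein of the endoplasmic reticulum (0.98). For Cat it was Gpr160 (0.93), for Gpx3 the homeobox gene Meis1 (0.95), and for Gpx4 the serpin gene Serpina3c (0.94). Prdx3 was nearest to Hsdl2, a gene of peroxisomal lipid metabolism (0.95), Prdx6 to Ltbp4, which binds latent TGF-beta (0.93), and Nqo1 to D17Wsu104e (0.93). No gene was the nearest of more than 1 enzyme.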

How the data were processed

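SOLiD SAGE libraries were made from eWAT RNA of 6 WT and 5 pKO mice, 1 library a mouse. Tags were aligned by the authors using their own version of the SOLiD SAGE program, and the submitters' processing notes name mm10 and edgeR 3.2.3. The deposited signal values, for 15453 genes, are tag counts scaled by 1 size factor per library. Whole tags were recovered for 100% of values (tolerance 0.1), with totals of 9659740 to 14825727, and no 2 libraries agreed within sampling noise (lowest chi-square per degree of freedom 17.7). log2(value + 1) of all genes was tested with limma 3.58.1 (moderated test with a mean-variance trend, Benjamini-Hochberg adjustment), with fold changes as pKO minus WT. A gene was counted where its mean reached 50 in WT or pKO mice, with an unadjusted p of at most 0.05 or an adjusted p of at most 0.1. Single genes were also tested over the 462 splits of the mice (exact permutation, two-sided). Count tests on the recovered tags used edgeR 4.0.16 (515 genes higher and 480 lower at the unadjusted threshold) and DESeq2 1.42.0. The fits were tested on simulated data. Sampling limits refer to counting error only, since the PCR products carried no molecular identifiers.

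Named were all 10 enzymes, up to 4 genes of each list (first those at an unadjusted p of at most 0.05, then the most abundant, all with a mean of at least 50), the nearest gene of each enzyme and Mest. The enzymes and lists were chosen with earlier results of these data known. Replicate numbers were not taken as pairs. The correlation of deviations between mice of the same number was -0.09 to 0.14, which shows no pairing but cannot exclude it. No sequencing batch is given. The alternatives were other scalings, pseudocounts of 0.5 and 10, filters, variance models and tests, a replicate block and leaving out each mouse. Some listed genes are not reported here.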

Additional observations from a re-analysis of the deposited data

Results flagged for a closer look

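Sod1 in pKO replicate 1, at 22479 normalized tags, stood apart from the other 4 pKO mice, which lay between 12201 and 14033, by more than Dixon's 95% critical value allows for 5 samples. It was the only such value among 22 groups looked at (each of the 10 enzymes and their summed share of tags, in both genotypes), where 1.1 would be flagged by chance. Dixon's ratio, the gap to the nearest value over the range, was 0.822 for it. The next highest was 0.708, for Sod3 in pKO replicate 5, which was not flagged. Enzyme values were taken as normalized tags here, and Dixon's ratio was not computed on the log2 scale of the genotype tests. On that scale Sod3 in pKO replicate 5 lay at -1.70 from the WT mean, beside -0.26 to 0.07 in the other 4 pKO mice. Sod1 in pKO replicate 1 lay at 0.90, beside 0.02 to 0.22. That Sod1 was the only flag therefore holds for normalized tags only.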

How the results depend on the processing

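Of 236 log2 fold changes of the 10 enzymes under alternative settings, 225 kept their direction and their side of the unadjusted threshold, 2 passed it (both Gpx3 without pKO replicate 2) and 9 changed sign. The number of enzymes called was 0 to 1 when 1 mouse was left out, and 1 in edgeR without pKO replicate 2, a fit added after seeing the data. The number of correlated pairs was 1 under total-count scaling. Leaving out 1 mouse turned the sign of Sod2 (-0.00666 to 0.18, lowest without pKO replicate 1), Gpx3 (-0.00139 to 0.41), Gpx4 (-0.0511 to 0.18), Prdx3 (-0.00672 to 0.23) and Gclc (-0.18 to 0.22). Gpx4 was at -0.0256 without WT replicate 3, Prdx3 at -0.0128 in edgeR without pKO replicate 2, and Gclc at 0.0349 in edgeR and 0.0414 in DESeq2. The cause of these turns was not tested beyond the mice named. A replicate block called 0 enzymes, and 387 genes higher and 491 lower, beside 480 and 572 without it. No setting brought an enzyme to an adjusted p of at most 0.1. Depth limits Prdx6 and Nqo1, at 52 and 149 tags in all.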

Other observations

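Ratios of 2 enzymes within a library do not depend on the scaling. They were computed after the values above had been seen, for all 45 pairs, and the pair with the lowest exact permutation p is given. The ratio of Sod1 to Sod3 tags, cytosolic to secreted dismutase, was 0.616 to 1.09 in WT (median 0.898, n = 6) and 1.07 to 2.89 in pKO mice (median 1.14, n = 5), a difference of 0.71 on the log2 scale (pKO minus WT, exact permutation p = 0.0087, Benjamini-Hochberg adjusted over the 45 pairs 0.39). The highest ratio was in pKO replicate 5, the mouse with the lowest Sod3. Without this mouse, left out after the values had been seen, the difference was 0.46 on the log2 scale, with pKO ratios of 1.07 to 1.57 (n = 4). The pair was picked from these same values, so this is a description and no separate test.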
